A study of Mus musculus with 4 samples.

Results

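The genes described here are the bone morphogenetic protein (BMP) ligands Bmp2, Bmp3, Bmp4 and Bmp7, the secreted BMP antagonists Nog, Grem1, Chrdl1 and Sostdc1, the membrane pseudoreceptor Bambi and the BMP target Id1. They were chosen by symbol, and each of the 10 matched 1 row among the 32285 genes of every count matrix. Single cells were taken from the proximal end of lower incisors at postnatal day 15 and sequenced with a 10x Genomics 3' kit, which counts tagged transcript 3' ends by unique molecular identifiers (UMIs). There were 2 libraries of WT mice and 2 of Din-KO mice. The Din-KO mice carry the tm1b allele of Din (4930453N24Rik), in which exon 2 is removed and a lacZ reporter stays under the gene's own promoter. The deletion is in the germ line, so epithelium, mesenchyme and every other cell of these mice carry it, and the WT mice are the only controls. The sources used here do not say how many mice, or of which sex, went into a library.

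BMPs are secreted proteins that bind paired serine/threonine kinase receptors and lead to phosphorylation of SMAD proteins, which switch on targets such as the Id genes. Antagonists bind the ligands outside the cell and keep them from the receptors. In teeth, BMPs pass between epithelium and mesenchyme, and they are known for their part in tooth initiation and in the differentiation of odontoblasts, which form dentin, and ameloblasts, which form enamel.

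Between 32198098 and 54348039 UMIs were counted per library. Of 20502 barcodes, 11310 passed the study's filters (at least 1000 genes, at most 10% mitochondrial and 3% hemoglobin UMIs), with a median of 8016 to 11587.5 UMIs per cell. Any pair of libraries shared 4 to 12 barcodes. Clusters were named from marker genes, with the 10 genes above and 49 other BMP pathway genes kept out of the clustering. Pulp-like cells numbered 3934, odontoblast lineage-like cells 864, dental follicle-like cells 1032 and epithelium-like cells 578. Summed markers of each list were highest in the class of that name, with 1 exception. The pulp list was as high in follicle-like cells through Sfrp2, and without it reached 3882 to 4998 CPM in pulp-like and 890 to 1926 CPM in follicle-like cells (CPM, counts per 1e+06 UMIs of the class in a library). The libraries did not hold the classes in like numbers: replicate 1 gave 1710 (WT) and 1866 (Din-KO) pulp-like cells, and replicate 2 gave 208 and 150. Cells that held Y-linked UMIs, with no more than 1 Xist UMI, were absent from the classes in the WT libraries and made up 27.4% to 60.7% of a class in the Din-KO libraries. Over all cells, sex and genotype thus cannot be told apart. Cells with at least 3 Xist and no Y-linked UMIs made up 28.1% to 60% of a class in the Din-KO libraries. The 3' reads of Din were at 33.1 and 24.6 CPM in the WT and at 17.3 and 21.0 CPM in the Din-KO libraries. They were counted per gene, without read positions, and do not test whether exon 2 is gone.

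Classes were compared on UMIs summed per library and class, with edgeR's quasi-likelihood test, the library as a block and Benjamini-Hochberg adjusted p-values over 13417 genes. A gene was called at an adjusted p under 0.05. Because the classes were cut from the same cells, these calls describe how the classes differ and are not an independent test of the classes. Of the 10 genes, 8 were called between odontoblast lineage-like and pulp-like cells (4 higher and 4 lower), beside 43.1% of all genes. Between follicle-like and pulp-like cells 7 were called (2 higher, 5 lower), beside 34.2%. Between epithelium-like and pulp-like cells 8 were called (4 higher, 4 lower), beside 55.3%. All 10 were called between follicle-like and odontoblast lineage-like cells (5 higher, 5 lower), beside 41.6%. Between epithelium-like and odontoblast lineage-like cells 7 were called (3 higher, 4 lower), beside 42.1%, and between epithelium-like and follicle-like cells 8 (5 higher, 3 lower), beside 52.1%. Ordering the 4 classes by mean CPM gives 3 pairs of neighbours for each gene. This order comes from the same counts as the calls.

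**Figure D1:**
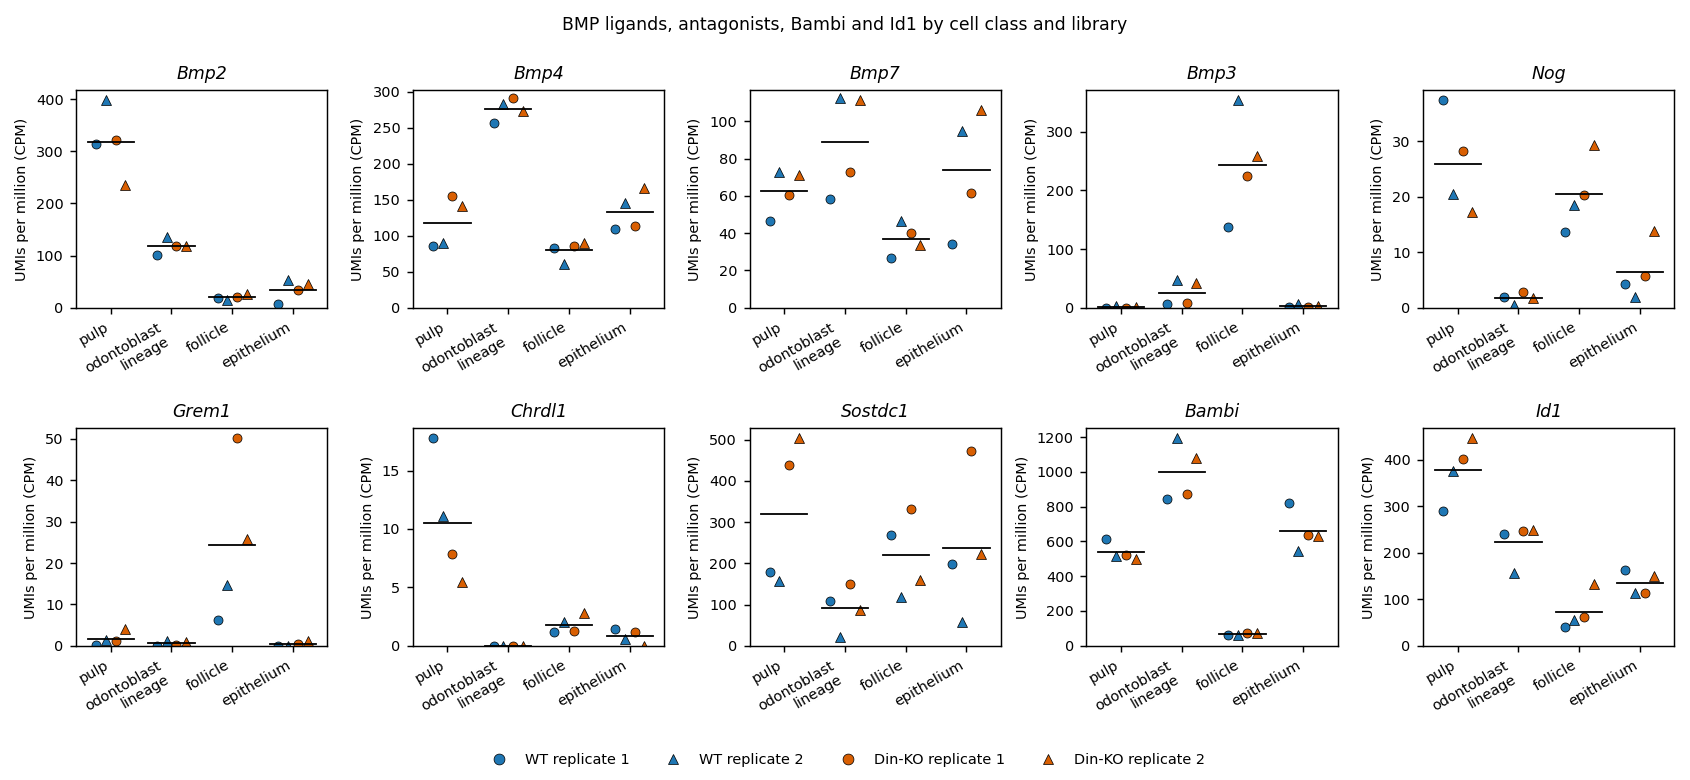
Normalised UMI counts (CPM, vertical axis, from 0) of each of the 10 genes in the 4 cell classes. Each point is 1 library (circles replicate 1, triangles replicate 2, blue WT, orange Din-KO) and the line is the mean of the 4. Bmp2 is highest in pulp, Bmp4 and Bambi in the odontoblast lineage, and Bmp3 and Grem1 in the follicle.

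Bmp2 was mainly a gene of the pulp. It encodes a ligand that drives bone and dentin formation and lies at chr2:133552159-133562885 on the plus strand of GRCm38. In pulp-like cells it was at 314 and 398 CPM in the WT libraries and at 322 and 236 CPM in the Din-KO libraries. In odontoblast lineage-like cells it was at 100 and 136 CPM in the WT libraries, and at 117 and 119 CPM in the Din-KO libraries. The ranges of the 2 classes did not overlap, and pulp was higher by 1.19 ± 0.37 on the log2 scale (SE, adjusted p = 0.021). Epithelium-like cells followed at a mean of 34.7 CPM, 1.57 ± 0.40 below the odontoblast lineage (adjusted p = 0.0060), and follicle-like cells came last at 20.2 CPM. Epithelium was above follicle in 3 of 4 libraries, by 1.16 ± 0.42 (adjusted p = 0.033). That last call was lost at resolution 0.5 (0.86), in thinned cells (0.59), and without WT replicate 2 (0.68), Din-KO replicate 1 (1.22) or Din-KO replicate 2 (1.11). Both other calls were lost without Din-KO replicate 1 (1.13 for pulp over odontoblast lineage, 1.53 for odontoblast lineage over epithelium).

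The pulp class held 4 clusters, and Bmp2 was uneven among them. It reached 504 (WT replicate 1) and 567 CPM (Din-KO replicate 1) in the cluster led by Cnmd and Gpha2, which had under 10 cells in each replicate 2 library. In the cluster led by Smoc2 and Lypd1 it was at 153 and 41.4 CPM in the WT libraries, and at 131 and 108 CPM in the Din-KO libraries, below every library of the clusters led by Cldn10 or by Vcan. Within the odontoblast lineage the cluster led by Dmp1, which encodes a dentin matrix protein, held 165 to 376 CPM of Bmp2, and the cluster led by Tac1 held 52.6 to 94.3 CPM. Values by cluster are descriptions, since the clusters were cut from the same cells.

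Bmp4 was highest in the odontoblast lineage. This ligand is the classical mesenchymal signal of tooth development, and its gene lies at chr14:46383520-46390669 on the minus strand. It was at 257 and 283 CPM in the WT and at 291 and 273 CPM in the Din-KO libraries. These values were close together and lay above every value of the other classes. Epithelium-like cells held 110 and 145 CPM in WT and 113 and 166 CPM in Din-KO, which was 0.83 ± 0.22 lower on the log2 scale (adjusted p = 0.0082). Pulp-like cells held 85.6 and 90.2 CPM in WT and 155 and 141 CPM in Din-KO, and follicle-like cells 60.6 to 90.5 CPM. Epithelium was called above pulp (0.68 ± 0.22, adjusted p = 0.019), although their CPM overlapped. Amelx, which encodes the enamel protein amelogenin, took 2.78% to 29.0% of the UMIs of epithelium-like cells, which lowers the CPM of every other gene there, and the fit scales for such differences (TMM). This call was lost in thinned cells (0.28), on leaving out WT replicate 2 (0.37) or Din-KO replicate 2 (0.65). Pulp and follicle did not differ beyond the spread (0.46 ± 0.22, adjusted p = 0.13), and at resolution 0.5 the sign turned (-0.31). At that resolution the follicle class held 465 cells of 1 cluster, led by Dkk2, and not 1032 cells of 2 clusters. Of the 2 follicle clusters used here, that led by Dkk2 held Bmp4 at 83.2 to 146 CPM and that led by Sfrp2 at 28.7 to 63.3 CPM.

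The 250 bases before the start of Bmp4, from RefSeq (GRCm38.p6, chr14:46390670-46390919, minus strand, 5' to 3'), are shown because Bmp4 and Grem1 are the genes of the 10 whose promoters could be matched. They were searched on both strands for GGCGCC, a GC-rich element that BMP SMADs bind, and for CAGAC, the general SMAD-binding element, and neither stands in this window. GGCGCC is held by 10.8% and CAGAC by 45.8% of 27025 mouse genes in windows of this length.
Bmp4: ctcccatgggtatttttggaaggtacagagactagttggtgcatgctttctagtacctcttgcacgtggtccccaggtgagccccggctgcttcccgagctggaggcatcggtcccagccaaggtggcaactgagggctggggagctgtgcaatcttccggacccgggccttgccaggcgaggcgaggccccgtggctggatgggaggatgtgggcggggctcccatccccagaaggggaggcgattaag

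In the pulp Bmp4 was highest in the Smoc2 cluster, where Bmp2 was lowest. There it was at 258 and 196 CPM in the WT libraries, and at 350 and 196 CPM in the Din-KO libraries. In the Cldn10 cluster it was at 43.2 CPM in both WT libraries and at 47.9 and 53.3 CPM in Din-KO, and the Vcan cluster lay between, at 80.0 to 147 CPM. The Cnmd cluster, where Bmp2 was highest, held 94.1 CPM of Bmp4 in WT replicate 1 and 139 CPM in Din-KO replicate 1, above the Vcan and Cldn10 clusters of the same libraries. Every library had its highest pulp value in the Smoc2 cluster and its lowest in the Cldn10 cluster. In the odontoblast lineage the Dmp1 cluster held 292 to 480 CPM, and the cluster led by Bglap, with the dentin gene Dspp among its leading genes, held 172 to 206 CPM.

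**Figure D2:**
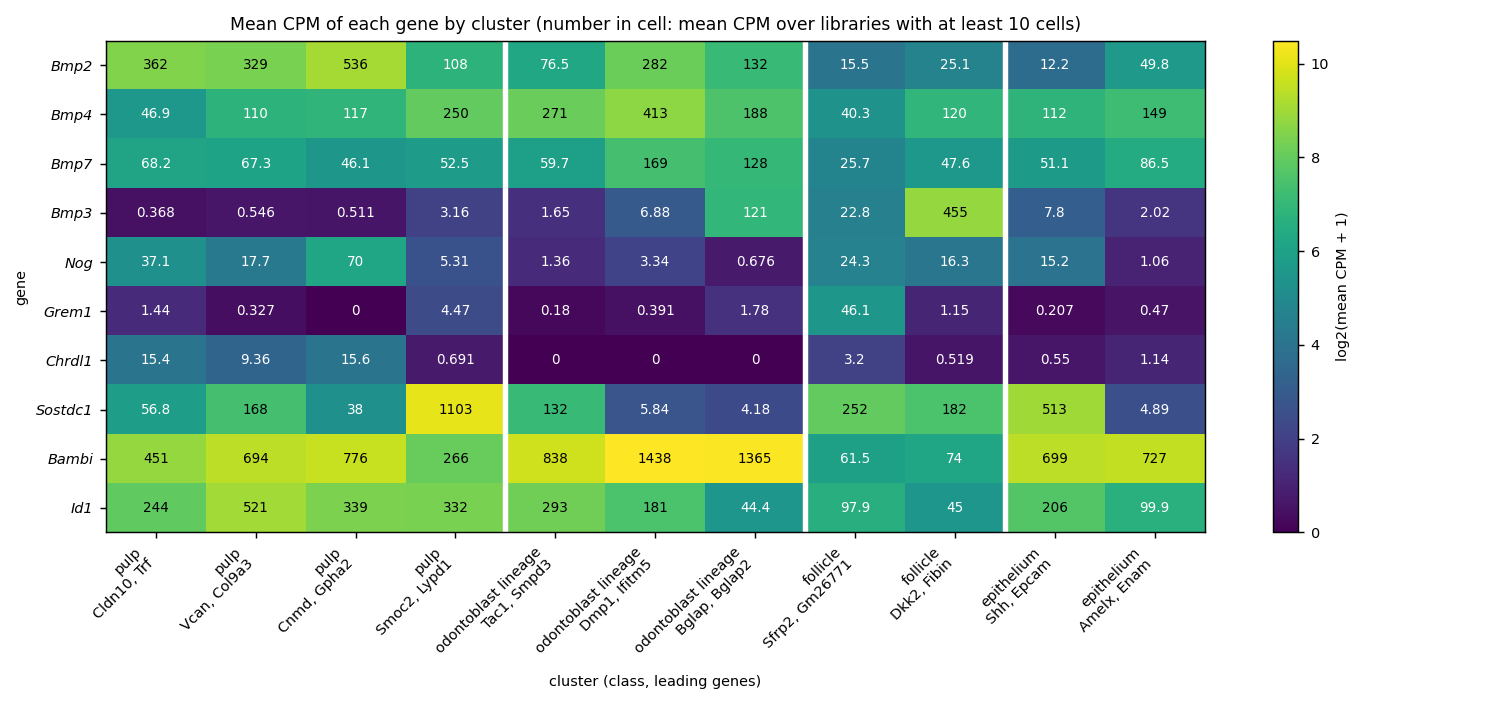
Mean CPM (number in each cell, colour on a log2 scale) of the 10 genes (rows) in the clusters of the 4 classes (columns, named by class and 2 leading genes), over libraries with at least 10 cells. The Smoc2 cluster of the pulp is high for Sostdc1 and Bmp4 and low for Bmp2, Nog and Chrdl1.

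Of the 4 ligands, Bmp7 had the narrowest range of class means, 36.8 to 88.8 CPM. It encodes a ligand made by both tissues of the tooth germ (chr2:172868012-172940321, minus strand). Odontoblast lineage-like cells held 58.4 and 113 CPM in WT and 73.0 and 111 CPM in Din-KO, and epithelium-like cells 34.1 and 94.97 CPM in WT and 61.4 and 106 CPM in Din-KO. In both classes replicate 2 was above replicate 1. The 2 classes did not differ beyond the spread (log2 difference 0.072 ± 0.22, adjusted p = 0.82). Epithelium was called above pulp, which held 46.6 to 73.1 CPM (0.64 ± 0.22, adjusted p = 0.027), and pulp above follicle, which held 26.8 to 46.5 CPM (0.71 ± 0.23, adjusted p = 0.026). The first of these calls was lost in thinned cells (0.51), on leaving out WT replicate 2 (0.41) or Din-KO replicate 2 (0.47). The second was lost at resolution 0.5 (0.29), without Din-KO replicate 1 (0.73) and without Din-KO replicate 2 (0.63).

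Bmp3 was a gene of the follicle. It encodes an atypical ligand that opposes the bone-forming BMPs (chr5:98854415-98884396, plus strand). In follicle-like cells it was at 137 and 353 CPM in the WT libraries, and at 224 and 259 CPM in the Din-KO libraries. The next class, the odontoblast lineage, was lower by 3.43 ± 0.35 on the log2 scale (adjusted p = 5.0e-06) and showed a gap between replicates, with 6.45 and 7.64 CPM in replicate 1 and 47.5 and 41.8 CPM in replicate 2 (WT and Din-KO). The Bglap cluster also differed in share between replicates, and how much of the gap goes with this was not tested. It made up 4.33% (95% Wilson interval 2.29 to 8.02) and 4.57% (2.83 to 7.30) of the lineage in replicate 1, and 40.1% (32.9 to 47.8) and 31.9% (24.9 to 39.9) in replicate 2. Its own level of Bmp3 was 112 to 138 CPM in the 3 libraries with at least 10 of its cells, against 0 to 4.01 CPM in the Tac1 cluster and 1.02 to 14.1 CPM in the Dmp1 cluster. Within the follicle, Bmp3 was at 245 to 585 CPM in the cluster led by Dkk2 and Fibin, and at 3.72 to 40.9 CPM in the cluster led by Sfrp2. Epithelium-like and pulp-like cells held means of 2.61 and 1.13 CPM. Their difference was called (2.05 ± 0.75, adjusted p = 0.033) on 40 and 16 UMIs, and was lost in 6 alternatives, among them leaving out WT replicate 1 (2.25), WT replicate 2 (1.83) or Din-KO replicate 2 (2.06).

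Of the secreted antagonists, Nog was shared by pulp and follicle. Noggin binds BMPs and blocks their contact with receptors (chr11:89300638-89302332, minus strand). In pulp-like cells it was at 37.3 and 20.5 CPM in the WT libraries, and at 28.1 and 17.1 CPM in the Din-KO libraries, and in follicle-like cells at 13.5 and 18.5 CPM in the WT libraries, and at 20.2 and 29.3 CPM in the Din-KO libraries. The ranges overlapped and the difference was not called (0.36 ± 0.36, adjusted p = 0.47), and it turned to -0.059 without WT replicate 1. Follicle was called above epithelium, which held 2.01 to 13.9 CPM (1.35 ± 0.41, adjusted p = 0.013), except without WT replicate 2 (1.08) or Din-KO replicate 1 (1.28). Epithelium was called above the odontoblast lineage, which had 31 UMIs (2.02 ± 0.55, adjusted p = 0.0088), except in thinned cells (0.37) and without Din-KO replicate 2 (1.37). In the pulp the Cnmd cluster held 62.7 and 77.3 CPM and the Cldn10 cluster 24.8 to 43.5 CPM, and the Smoc2 cluster held 0 to 12.8 CPM. In the epithelium Nog was at 4.77 to 32.7 CPM in the cluster led by Shh and Epcam, and at 0 to 2.78 CPM in the cluster led by the enamel matrix genes Amelx and Enam.

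Among the 4 classes, Grem1 was found in the Sfrp2 cluster of the follicle and nearly nowhere else. Gremlin is a BMP antagonist of the DAN family (chr2:113746164-113758646, minus strand). In follicle-like cells it was at 6.34 and 14.8 CPM in the WT libraries, and at 50.1 and 25.9 CPM in the Din-KO libraries. Its 452 UMIs there compare with 26 in the pulp, 10 in the odontoblast lineage and 7 in the epithelium. Follicle was above pulp by 4.48 ± 0.50 on the log2 scale (adjusted p = 1.5e-05), and the other neighbours were not called (adjusted p = 0.53 and 0.89). Its follicle signal lay in the Sfrp2 cluster, with 13.2 and 32.1 CPM in WT and 92.1 and 47.0 CPM in Din-KO, against 0 to 2.45 CPM in the Dkk2 cluster. Bmp3 and Grem1, ligand and antagonist, were thus high in different follicle clusters in each of the 4 libraries. The Sfrp2 cluster scored 5.08 on the follicle list and 4.54 on the pulp list. At resolution 0.5 a cluster of 682 cells with Sfrp2 among its leading genes stayed unnamed. The follicle class then held the cluster led by Dkk2 alone. The 250 bases before the Grem1 start (RefSeq, GRCm38.p6, chr2:113758649-113758898, minus strand, 5' to 3') hold 1 CAGAC and 1 GGCGCC, which are in capitals.
Grem1: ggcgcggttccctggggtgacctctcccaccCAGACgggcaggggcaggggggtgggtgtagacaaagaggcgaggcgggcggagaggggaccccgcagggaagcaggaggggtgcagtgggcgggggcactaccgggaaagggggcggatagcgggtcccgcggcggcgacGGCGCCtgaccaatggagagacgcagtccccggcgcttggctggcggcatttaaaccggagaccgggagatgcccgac

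Chrdl1, which encodes a chordin-like BMP antagonist (chrX:143285674-143394262, minus strand), was a low gene of the pulp. It was at 17.7 and 11.1 CPM in the WT libraries, and at 7.85 and 5.49 CPM in the Din-KO libraries in pulp-like cells, from 400 UMIs. No UMI was seen in the 864 odontoblast lineage-like cells, which allows a share of cells with a UMI of up to 0.347% and a level of up to 0.172 CPM (3 counts over all 4 libraries, counting error only). The mean of the pulp libraries, 10.5 CPM, was 61.4-fold above this limit, with the spread between libraries left out. In Din-KO replicate 2, where the pulp was lowest at 5.49 CPM, the limit of that library alone was 0.756 CPM. Follicle-like and epithelium-like cells held means of 1.81 and 0.796 CPM. Pulp was above follicle by 2.31 ± 0.48 on the log2 scale (adjusted p = 0.0038), and follicle and epithelium did not differ beyond the spread (1.01 ± 0.69, adjusted p = 0.25) and changed order at resolution 0.5 (-0.80). Epithelium was called above the odontoblast lineage (adjusted p = 0.022), but on 11 UMIs, and the call was lost without WT replicate 1, WT replicate 2 or Din-KO replicate 1. In the pulp the Cldn10 and Cnmd clusters held 8.41 to 26.5 CPM, and the Smoc2 cluster held 0 CPM in 3 libraries and 2.76 CPM in WT replicate 2.

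Sostdc1 was broad across classes and sharply divided within them. It encodes a secreted protein, also called ectodin or Wise, that binds BMPs and dampens Wnt signalling, and it lies at chr12:36314139-36318452 on the plus strand. In pulp-like cells it was at 179 and 158 CPM in the WT libraries, and at 439 and 504 CPM in the Din-KO libraries. In epithelium-like cells it was at 197 and 56.5 CPM in the WT libraries, and at 472 and 223 CPM in the Din-KO libraries. Follicle-like cells held 268 and 117 CPM in WT and 332 and 160 CPM in Din-KO. These 3 classes could not be ordered (adjusted p = 0.66 for pulp over epithelium and 0.55 for epithelium over follicle). The odontoblast lineage, with 108 and 21.5 CPM in WT and 150 and 87.2 CPM in Din-KO, was below follicle by 1.27 ± 0.30 on the log2 scale (adjusted p = 0.0039).

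In the pulp, the epithelium and the odontoblast lineage 1 cluster stood above the rest for Sostdc1. In the pulp it was at 1332 and 591 CPM (WT) and 1406 and 1083 CPM (Din-KO) in the Smoc2 cluster, and at most 260 CPM in any library of the other 3. In the epithelium it was at 265 and 436 CPM (WT) and 819 and 532 CPM (Din-KO) in the Shh cluster, and at 0 to 13.2 CPM in the Amelx cluster. In the odontoblast lineage it was at 43.4 to 199 CPM in the Tac1 cluster, and at most 10.9 CPM in the Dmp1 and Bglap clusters. The 2 follicle clusters overlapped, with 127 to 456 and 110 to 265 CPM. The Shh cluster made up 84.0% and 26.4% of epithelium-like cells in WT replicates 1 and 2, and 69.7% and 40.7% in Din-KO replicates 1 and 2. Within each genotype the library with the larger share had the higher Sostdc1 in the epithelium. WT replicate 1, with the largest share of the 4, was below both Din-KO libraries. How much of these differences goes with the make-up was not tested.

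Bambi separated the follicle from the other classes. It encodes a membrane protein that resembles a type I receptor without the kinase domain and damps BMP and related signals (chr18:3507923-3516404, plus strand). Odontoblast lineage-like cells held 843 and 1195 CPM in WT and 871 and 1081 CPM in Din-KO, above every library of the other classes. Epithelium-like cells held 544 to 820 CPM and pulp-like cells 498 to 612 CPM, while follicle-like cells held 59.0 to 74.4 CPM. Pulp was above follicle by 2.90 ± 0.16 on the log2 scale (adjusted p = 7.5e-08), and epithelium above pulp by 0.74 ± 0.15 (adjusted p = 0.00081). The odontoblast lineage was called above epithelium (0.42 ± 0.15, adjusted p = 0.034), but not at resolution 0.5 (0.34), nor without WT replicate 2 (0.34), Din-KO replicate 1 (0.44) or Din-KO replicate 2 (0.36). Both follicle clusters were low, at 52.9 to 86.6 CPM. Within the lineage the Dmp1 and Bglap clusters held 1220 to 1664 CPM and the Tac1 cluster 674 to 1033 CPM.

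Id1 encodes a helix-loop-helix protein that BMP SMADs switch on directly (chr2:152736251-152737410, plus strand). In pulp-like cells it was at 290 and 376 CPM in the WT libraries, and at 401 and 448 CPM in the Din-KO libraries. The odontoblast lineage held 241 and 157 CPM in WT and 246 and 250 CPM in Din-KO, and the epithelium 113 to 164 CPM. Pulp was above the odontoblast lineage in all 4 libraries, but the difference was not called (0.49 ± 0.22, adjusted p = 0.089). Neither was the odontoblast lineage over epithelium (0.52 ± 0.22, adjusted p = 0.073), which was called without the filter on low counts (0.55) and at resolution 0.5 (0.57). Follicle was lowest, with 40.0 and 54.9 CPM in WT and 61.5 and 133 CPM in Din-KO, and lay 1.37 ± 0.23 below epithelium (adjusted p = 0.00020). In the odontoblast lineage the Tac1 cluster held 262 to 371 CPM and the Bglap cluster 38.2 to 55.3 CPM, the reverse of the order for Bambi.

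Din-KO was then compared with WT within each class, 2 libraries against 2. None of the 10 genes was called in any class in this fit, which had no replicate block. Some of them were called in the pulp and the odontoblast lineage with replicate number as a block, but the labels do not say what that number marks. With 2 libraries per genotype, a gene that was not called is not shown to be unchanged. Of all genes, 0.0151% were called in the pulp (2 genes, the Y-linked Ddx3y and Eif2s3y) and 0% in each of the odontoblast lineage, the follicle and the epithelium. At the same adjusted threshold DESeq2 called 16, 5, 37 and 7 genes in these 4 classes. At an unadjusted p under 0.05, edgeR counted 261, 99, 315 and 142 genes, and DESeq2 169, 63, 213 and 117. The 10 genes gave 33 tests, since Nog did not pass the filter on low counts in the odontoblast lineage, nor Grem1 outside the follicle, nor Chrdl1 outside the pulp. Of these 33, 5 had an unadjusted p under 0.05 with edgeR. They were 3 of 9 in the pulp (beside 1.97% of all genes tested) and 2 of 9 in the follicle (beside 2.54%). None lay in the odontoblast lineage or the epithelium (beside 0.843% and 1.24%). DESeq2 called 1 at the adjusted threshold, Sostdc1 in the pulp, beside 16 of 13269 genes there. A test of the genotype effect between classes called none of the genes (0% of 13825 genes, 271 at an unadjusted p under 0.05). DESeq2 called 6 genes in that test at the adjusted threshold.

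In the class where each was highest, the differences of Din-KO from WT on the log2 scale were -0.33 ± 0.27 for Bmp2 (pulp), 0.033 ± 0.23 for Bmp4 (odontoblast lineage), 0.077 ± 0.43 for Bmp7 (odontoblast lineage) and -0.085 ± 0.43 for Bmp3 (follicle). For the antagonists they were -0.34 ± 0.40 for Nog (pulp), 1.74 ± 0.49 for Grem1 (follicle), -1.08 ± 0.40 for Chrdl1 (pulp) and 1.47 ± 0.26 for Sostdc1 (pulp). For Bambi (odontoblast lineage) and Id1 (pulp) they were -0.092 ± 0.32 and 0.36 ± 0.24. The adjusted p was 0.66 for Sostdc1 and 1.0 for the other 9.

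**Figure D3:**
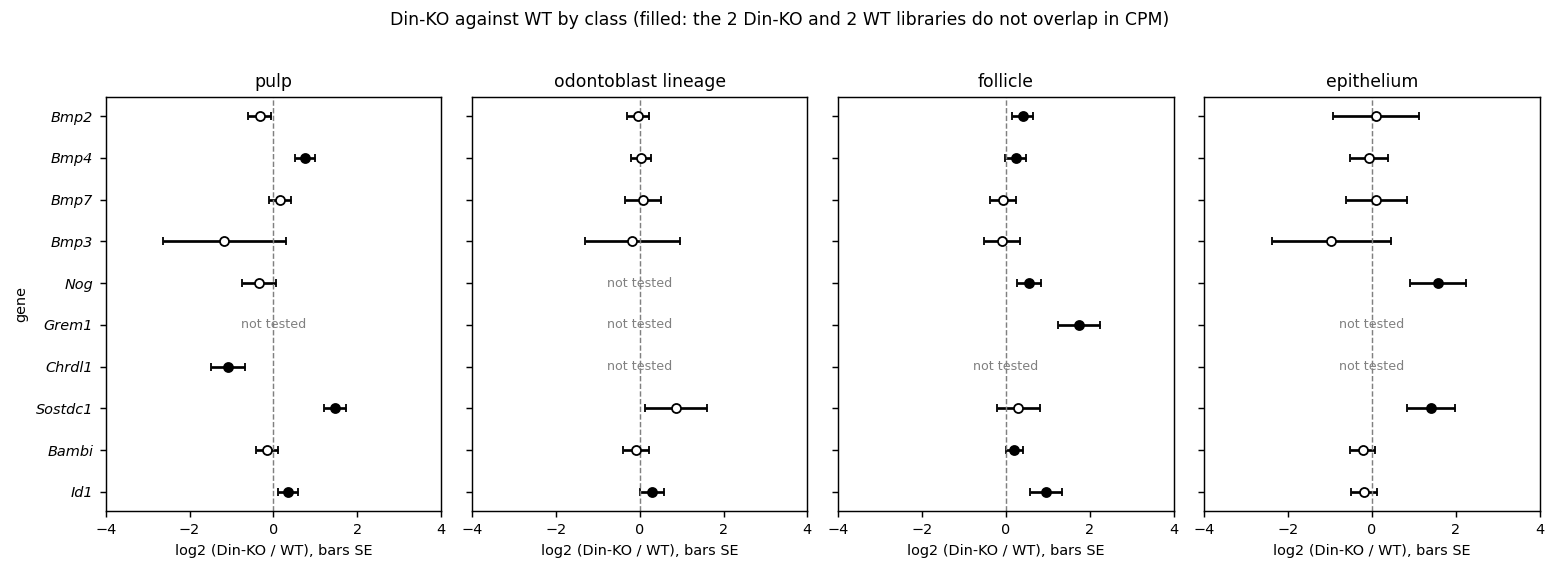
Log2 difference of Din-KO from WT (horizontal axis, bars SE) for the 10 genes in each class, from edgeR, with positive values higher in Din-KO. Filled points mark genes whose 2 Din-KO and 2 WT libraries do not overlap in CPM, among them Sostdc1 in pulp and epithelium and Grem1 in follicle, and genes that did not pass the filter on low counts are marked as not tested. No point passed the adjusted threshold.

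Sostdc1 in the pulp had the smallest adjusted p of the 10 genes. Its Din-KO libraries lay at 439 and 504 CPM and its WT libraries at 179 and 158 CPM, without overlap (means 472 ± 46 and 169 ± 15, SD, n = 2 each). It stayed uncalled with edgeR without each library in turn (1.31 to 1.66, with 1 arm then a single library that is assumed to vary like the other arm), while DESeq2 (1.47, adjusted p = 0.00023) and edgeR without the filter on low counts (1.47, adjusted p = 0.0022) called it. The make-up of the pulp moved with it. The Smoc2 cluster, where Sostdc1 is highest, made up 12.5% (95% Wilson interval 11.03 to 14.2) and 15.4% (11.1 to 20.9) of pulp-like cells in WT, and 30.9% (28.9 to 33.1) and 38% (30.6 to 46.0) in Din-KO. Within that cluster the difference was 0.37 ± 0.41, and in the Cldn10 and Vcan clusters 1.05 ± 0.33 and 1.27 ± 0.28. The WT and Din-KO libraries overlapped in the Smoc2 cluster and did not in the Cldn10 and Vcan clusters, and the adjusted p was 1.0 in all 3. With these 3 clusters given equal weight in each library, the ratio of Din-KO to WT was 1.42, against 2.80 for the whole class. The whole class also holds the Cnmd cluster, which the equal weights leave out. The first ratio is of means of CPM over the clusters, so it rests mostly on the Smoc2 cluster, where the level is highest. How much of the class difference goes with the make-up was not tested.

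**Figure D4:**
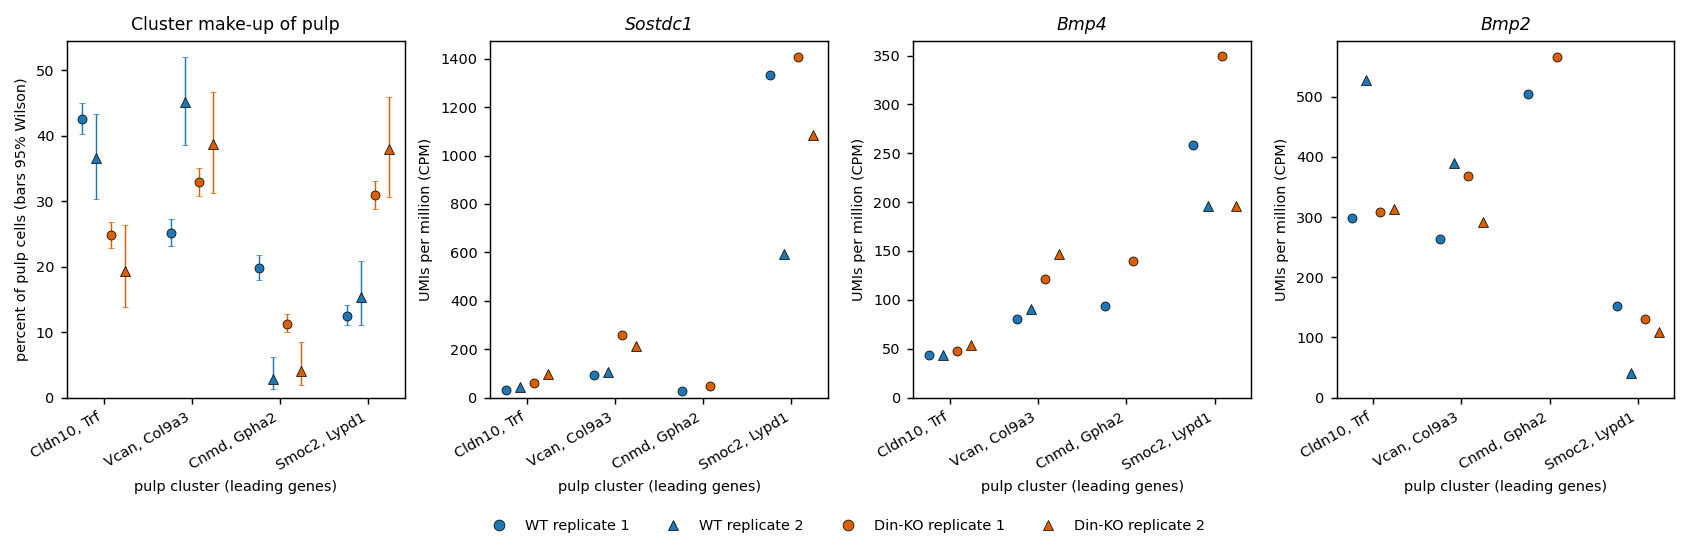
Left, share of each cluster among the pulp-like cells of a library (percent, bars 95% Wilson intervals). Right, CPM of Sostdc1, Bmp4 and Bmp2 in each pulp cluster, 1 point per library with at least 10 cells. The Smoc2 cluster makes up 12.5% and 15.4% of pulp in WT and 30.9% and 38% in Din-KO, and has the highest Sostdc1 and Bmp4 of the pulp clusters in each library.

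Bmp4 in the pulp was higher in both Din-KO libraries (148 ± 9.9 against 87.9 ± 3.2 CPM, SD, n = 2 each), by 0.76 ± 0.24 on the log2 scale with an adjusted p of 1.0. Within the Smoc2 cluster the difference was 0.29 ± 0.35, in the Vcan cluster 0.65 ± 0.27 and in the Cldn10 cluster 0.21 ± 0.30. With equal weights, again as means of CPM without the Cnmd cluster, the ratio of Din-KO to WT was 1.29, against 1.69 for the whole class. Chrdl1, which is at or near 0 in the Smoc2 cluster, was lower in both Din-KO libraries of the pulp, and kept a ratio of 0.511 with equal weights against 0.462. Chrdl1 is X-linked, and the Din-KO libraries held cells with Y-linked UMIs. In cells with at least 3 Xist and no Y-linked UMIs the Chrdl1 difference was -0.82 ± 0.43, that of Sostdc1 1.32 ± 0.27 and that of Bmp4 0.72 ± 0.26.

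In the pulp, libraries did not overlap between genotypes for 4 of 9 genes tested (Bmp4, Sostdc1 and Id1 higher in Din-KO, Chrdl1 lower), beside 23.9% of all genes tested. The share was 1 of 7 in the odontoblast lineage (Id1), beside 19.2%, and 2 of 8 in the epithelium (Nog and Sostdc1), beside 20.9%. In the follicle it was 6 of 9, beside 23.7%, with Bmp2, Bmp4, Nog, Grem1, Bambi and Id1 each higher in both Din-KO libraries. The median difference of the 9 genes in the follicle was 0.30 on the log2 scale, and that of all genes -0.022. Of the 6, Grem1 (1.74 ± 0.49) and Id1 (0.95 ± 0.38) were more than 2 SE from 0. In the Sfrp2 cluster their differences were 1.5 ± 0.48 and 1.14 ± 0.40 (adjusted p = 1.0 each). Grem1 was called without the filter on low counts (1.74, adjusted p = 1.2e-05). It was also called without Din-KO replicate 2 (2.18, adjusted p = 0.012), where the Din-KO arm is the single library at 50.1 CPM, assumed to vary like the 2 WT libraries.

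Id1 was higher in both Din-KO libraries in 3 classes, which come from the same 4 libraries and are not separate observations. Of all genes tested, 23.9% in the pulp, 19.2% in the odontoblast lineage and 23.7% in the follicle did not overlap between genotypes. Id1 was called in none of these classes (edgeR, unadjusted p = 0.18, 0.34 and 0.046). The means were 425 ± 33 against 333 ± 61 CPM in the pulp, 248 ± 2.2 against 199 ± 59 CPM in the odontoblast lineage and 97.3 ± 51 against 47.4 ± 10.5 CPM in the follicle (SD, n = 2 each). In the epithelium the groups overlapped (132 ± 27 against 139 ± 36 CPM). In the odontoblast lineage the 2 WT libraries stood at 241 and 157 CPM and the lower Din-KO library at 246 CPM, so WT replicate 1 lay close to both Din-KO libraries and WT replicate 2 stood apart.

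The wider BMP pathway was read from a list of 49 genes in 5 roles, of which 43 were tested between classes. Of these, 23 were called between odontoblast lineage-like and pulp-like cells (5 higher, 18 lower), or 53.5% beside 43.1% of all genes, and 22 between follicle-like and pulp-like cells (8 higher, 14 lower), or 51.2% beside 34.2%. Epithelium-like cells differed from pulp-like cells in 28 (8 higher, 20 lower), or 65.1% beside 55.3%. They differed from odontoblast lineage-like cells in 27 (15 higher, 12 lower), or 62.8% beside 42.1%, and from follicle-like cells in 28 (13 higher, 15 lower), or 65.1% beside 52.1%. Follicle-like cells differed from odontoblast lineage-like cells in 29 (18 higher, 11 lower), or 67.4% beside 41.6%. The median difference from pulp was -0.56 for the odontoblast lineage, -0.34 for the follicle and -0.51 for the epithelium on the log2 scale, with medians over all genes of -0.013, 0.032 and 0.037.

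Of the other targets, the 3 with the highest levels, Id3, Msx1 and Id2, peaked in the pulp. Id3, a relative of Id1, was at 2051 ± 218 CPM there (SD, n = 4) and at means of 549 to 768 CPM in the other classes. Msx1, a homeobox gene of the dental mesenchyme, was at 441 ± 42 CPM in the pulp, 316 in the odontoblast lineage, 203 in the follicle and 9.41 in the epithelium. Id2 was at 425 ± 122 CPM in the pulp and at 164 to 265 CPM elsewhere. Of the 8 listed targets, 5 were called lower in the odontoblast lineage than in the pulp, beside 21.2% of all genes called lower there. In the follicle 6 were called lower than in the pulp, beside 14.8%, and in the epithelium 6, beside 25.9%. None of the 8 was called higher in these 3 comparisons. The 250 bases before the start of Id3, the highest of these targets (RefSeq, GRCm38.p6, chr4:136143572-136143821, plus strand, 5' to 3'), hold CAGAC once on each strand (in capitals, GTCTG being its complement) and no GGCGCC.
Id3: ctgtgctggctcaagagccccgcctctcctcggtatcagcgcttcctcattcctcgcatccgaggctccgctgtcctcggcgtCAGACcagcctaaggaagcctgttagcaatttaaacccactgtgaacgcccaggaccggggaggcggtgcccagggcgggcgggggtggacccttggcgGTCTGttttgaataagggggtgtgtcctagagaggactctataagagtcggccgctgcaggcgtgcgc

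Among the receptors, Bmpr2, the main type II BMP receptor, was at 146 ± 28 CPM in the pulp and at 93.2 to 105 CPM in the other classes, and Bmpr1a, a type I receptor, ran from 47.5 CPM in the odontoblast lineage to 88.0 ± 6.5 CPM in the follicle. Neo1, which binds repulsive guidance molecules that act as BMP co-receptors, was at 105 and 101 CPM in pulp and follicle and at 34.3 and 45.6 CPM in the odontoblast lineage and epithelium. Among intracellular genes the inhibitory SMADs Smad7 and Smad6 were highest in the pulp, at 157 ± 17 and 143 ± 41 CPM, and lowest in the follicle, at 58.2 and 25 CPM. Smad4, the shared partner of the pathway SMADs, lay between 60.7 and 83.8 CPM in all 4 classes.

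Further antagonists and ligands differed in their class means. Fstl1, a secreted follistatin-like protein, was at 1089 ± 373 CPM in the follicle and 923 CPM in the pulp. It was at 596 CPM in the odontoblast lineage and 225 CPM in the epithelium. Nbl1, a DAN family antagonist, was at 454 ± 58 CPM in the pulp, 284 in the follicle, 80.9 in the odontoblast lineage and 26.2 in the epithelium. Of the further ligands, Bmp8a was at 57.3 ± 40 CPM in the odontoblast lineage and 30.2 CPM in the epithelium. It was under 1 CPM in the other classes. Bmp5 was at 22 ± 5.7 CPM in the follicle, 14.6 in the odontoblast lineage, 9.56 in the pulp and 1.85 in the epithelium. Bmp6 was at 10.8 ± 4.4 CPM in the pulp and at 0.709 to 2.62 CPM elsewhere. None of the 36 to 38 genes of the list tested for Din-KO against WT in a class was called.

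**Figure D5:**
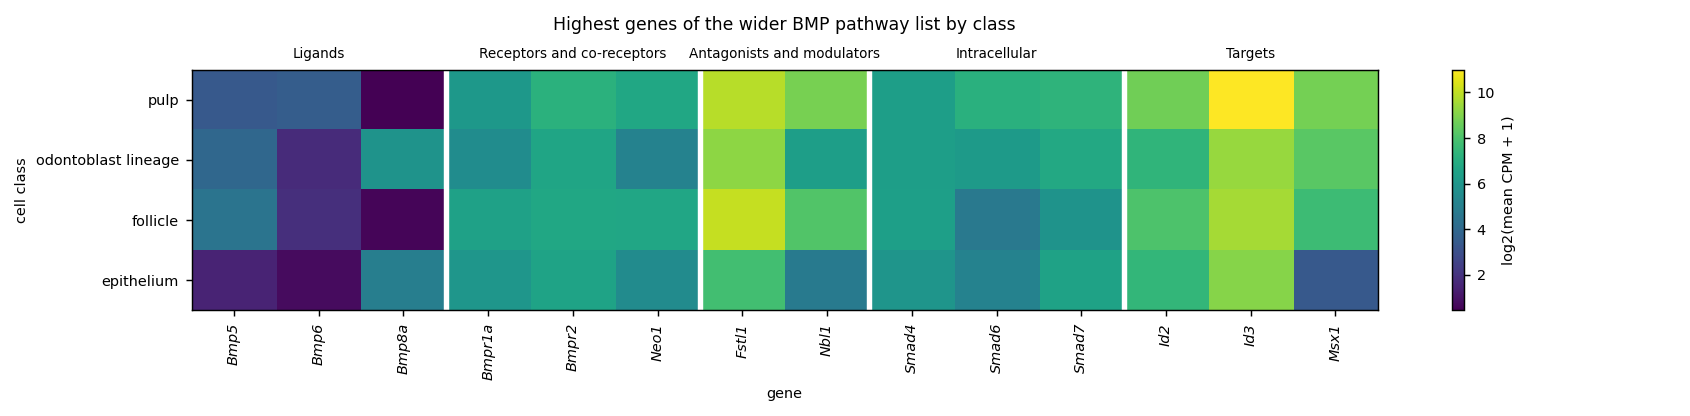
Mean CPM over 4 libraries (colour, log2 of CPM + 1) of the wider-list genes described in the text (columns, grouped by role) in the 4 classes (rows). Id3, Msx1 and Nbl1 are brightest in the pulp and Fstl1 in the follicle.

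Genes with the most similar pattern were sought over 52 sums of library and class in 13 named classes, as the Pearson correlation of log2(CPM + 5) among 9739 genes. The sums share libraries and depth, so r is a description only. Bmp2 was closest to Sox9 (0.822) and Dlx4 (0.794), Bmp4 to Bambi (0.853) and Robo1 (0.850), and Bmp7 to Pdpn (0.888) and Aldh1a3 (0.847). Bmp3 was closest to Wnt11 (0.95) and Itga11 (0.933). Among the antagonists, Nog was closest to Neo1 (0.810) and Dkk3 (0.808), Grem1 to Aldh1a2 (0.775) and Epha3 (0.769), and Sostdc1 to Dlx1 (0.849) and Dlx2 (0.792). Bambi was closest to Dcbld1 (0.869) and Robo1 (0.866), and Id1 to Smad6 (0.822) and Unc5b (0.817). Robo1 stood on the lists of both Bmp4 and Bambi, and Smad6, the nearest gene to Id1, is itself a BMP target.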

How the data were processed

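The authors deposited raw UMI counts per gene and barcode for 4 libraries, made with Cell Ranger 6.0.2 (per the file headers) against mm10/GRCm38, with no normalization. The study's cell filters were applied, and Seurat 5.3.0 integrated the libraries on 2000 variable genes with cell cycle regression and clustered 30 principal components at resolution 1. The 10 genes and the 49 of the wider list were kept out of the variable genes (18 would have been among the 2000).

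Clusters were named from marker lists by a rule set with the data in hand. Clusters with at least 5 of 8 dental mesenchyme markers in at least 25% of cells were scored by the mean of the 3 highest marker ratios of a list, and other clusters by the mean over the list. A name needed a score of at least 1 (log2), 3 detected markers and 1 among the 10 leading genes. Of 33 clusters 7, with 1412 cells, stayed unnamed. Scrublet (scanpy 1.11.5) marked 4 to 9 doublets per library, so it had not worked, and removing the 5% of cells with the highest scores was an alternative. The genes, the lists and the rule for named genes (all 10 genes; of the wider list, the 3 highest per role and any called for the genotype) were chosen with earlier results of these data known. A gene that the rule would name is not reported here. Genotype differences outside a gene's highest class were singled out after their values were seen.

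UMIs were summed per library and class (at least 10 cells) and tested in edgeR 4.0.16 (TMM, filterByExpr, quasi-likelihood, Benjamini-Hochberg at 0.05) in R 4.3.3, class pairs with the library as a block and genotypes without covariate. DESeq2 1.42.0 was an alternative, and fits within single clusters were added after seeing the data. CPM are counts per 1e+06 UMIs of the summed class. The fits were checked on simulated data. There the genotype fits missed most 2-fold changes in every class, and every 4-fold change in the epithelium. P-values measure the spread between libraries, which may be technical. With 2 libraries per genotype the smallest two-sided exact permutation p is 0.333. Replicate numbers come from the sample titles, and the library names in the labels number the libraries differently. Limits from counts of 0 and intervals cover counting error only.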

Additional observations from a re-analysis of the deposited data

How the results depend on the processing

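Thinning cells to 2000 UMIs left fewer genes to test between classes (7616 of 13417) and gave 2158 (odontoblast lineage against pulp), 1740 (follicle against pulp), 2837 (epithelium against pulp), 2005 (follicle against odontoblast lineage), 1745 (epithelium against odontoblast lineage) and 2517 (epithelium against follicle) genes called. It gave 1 for the interaction and 4 for the genotype in pulp. Leaving out 1 library gave 3055 to 4130 genes for follicle against pulp, 1 to 65 for the genotype in pulp and 5 to 113 in follicle, and of the 10 genes 5 to 8 for epithelium against pulp, 4 to 6 for epithelium against odontoblast lineage and 0 to 1 for the genotype in follicle. In these genotype fits 1 arm is a single library, assumed to vary like the other. Of the 13463 to 13689 genes tested between classes without 1 library, 6128 to 6921 were called for epithelium against pulp. For epithelium against odontoblast lineage 4141 to 5262 were called. DESeq2 called 6 genes for the interaction and 16, 5, 37 and 7 for the genotype in pulp, odontoblast lineage, follicle and epithelium; without a filter on low counts edgeR called 2 for the interaction and 62, 20 and 179 in the first 3. The genotype count in pulp was 0 at resolution 0.5, 0 in Xist cells (2 in follicle), and 8, 0 and 0 within the Cldn10, Vcan and Smoc2 clusters; it was 1 within the Sfrp2 cluster of the follicle. Of the 10 genes, 4 were called for epithelium against pulp when thinned, beside 2837 of 7616 genes. For epithelium against follicle at resolution 0.5 there were 5, beside 6775 of 13351 genes. For the genotype 1 was called in pulp with DESeq2 (beside 16 of 13269 genes). Without the filter 1 was called in pulp (beside 62 of 20837) and 1 in follicle (beside 179 of 19574).

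With the replicate block, 346, 145, 100 and 0 genes were called for the genotype in pulp, odontoblast lineage, follicle and epithelium, and of the 10 genes 3 in pulp (Sostdc1, Bmp4, Chrdl1; adjusted p = 6.4e-07, 0.0013 and 0.011), 1 in the odontoblast lineage and 0 in the others. Same-numbered libraries deviated together from their genotype means (r = 0.519 to 0.715 by class). With 2 libraries per genotype the deviations mirror each other, so r is the same for both numbers. Libraries of unlike number give the same r with the opposite sign, and the classes come from the same 4 libraries. The labels tie no number to a litter or day, and 2 pairs are too few to decide whether the numbers pair the libraries. With the block, Bmp3 by genotype in follicle turned to 0.041.

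At resolution 0.5 the follicle class was 465 cells of 1 cluster led by Dkk2, against 1032 cells of 2 clusters. A cluster of 682 cells with Sfrp2 among its leading genes stayed unnamed at that resolution. Signs turned, with no call on either side, in these cases (log2). At resolution 0.5 these were Bmp4 pulp over follicle (-0.31), Bmp7 odontoblast lineage over epithelium (-0.073), Chrdl1 follicle over epithelium (-0.80), Sostdc1 pulp over epithelium (-0.070) and Bmp3 by genotype (0.23). Thinned, they were Bmp7 (-0.34), and by genotype Bmp4 (-0.067) and Bambi (0.029) in the odontoblast lineage. Sostdc1 turned to -0.066 for pulp over epithelium with pathway genes kept in the clustering, and to -0.089 for epithelium over follicle without the highest doublet scores. Bmp4 by genotype in the odontoblast lineage was -0.11 in Xist cells and -0.28 in the Dmp1 cluster. Within clusters Bmp2 was 0.049 (Vcan) and 0.22 (Smoc2), Nog 0.39 (Cldn10) and Bmp3 0.25 (Dkk2). Leaving out 1 library gave Bmp7 -0.095 to 0.20, Nog pulp over follicle -0.059 to 0.59, Grem1 odontoblast lineage over epithelium -0.71 to 1.06, Sostdc1 pulp over epithelium -0.040 to 0.33, and by genotype Bmp4 -0.065 to 0.14, Bmp7 -0.34 to 0.67, Bmp3 -0.60 to 0.72, Nog -0.87 to 0.32 and Bambi -0.35 to 0.22. The cause of these changes was not tested.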

Other observations

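Outside the 4 classes each of the 10 genes except Chrdl1 had a lower mean in every named class than in its highest class of the 4. In the 522 B-like cells, which should lack most of them, mean CPM ran from 0 (Grem1, Chrdl1) to 27.0 (Bambi). Endothelium-like cells held Id1 at 338 CPM and Bambi at 291 CPM (means of 4 libraries), beside 379 and 538 CPM in the pulp. Perivascular-like cells held Id1 and Bambi at means of 210 and 143 CPM. Bmp2 was at means of 45.6 CPM in neutrophil-like and 40.6 CPM in macrophage-like cells. Its means were 34.7 CPM in the epithelium and 20.2 CPM in the follicle. The neutrophil-like value came from 69 UMIs in 12 of 153 cells, and 31 of these UMIs lay in 2 of 71 cells of WT replicate 2. In macrophage-like cells 573 UMIs lay in 266 of 1407 cells. A Bmp2 UMI was seen in 7.64% to 54.5% of epithelium-like cells of a library. Chrdl1 was at a mean of 17.4 CPM in glia-like cells (22 UMIs), beside 10.5 CPM in the pulp. Over the 4 libraries, bone osteoblast-like cells held Bmp3 at 46.8 to 159 CPM. The 94 glia-like cells held Sostdc1 at 27.8 to 212 CPM and Chrdl1 at 11.1 to 19.7 CPM. The 79 perivascular-like cells held Nog at 17.2 to 22.2 CPM, from 16 UMIs in 8 cells. In each Din-KO library the Nog value rests on 4 UMIs of 1 perivascular-like cell. The 19 perivascular-like cells of WT replicate 2 also held Grem1 at 43.4 CPM (10 UMIs) and Chrdl1 at 47.7 CPM (11 UMIs). Neither gene had a UMI in these cells of the other libraries.

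Unnamed mesenchymal clusters entered no comparison. A cluster of 561 cells led by Ifitm1 held Bambi at 756 to 1159 CPM, Bmp2 at 184 to 247 CPM, Nog at 11.53 to 39.2 CPM and Sostdc1 at 13.8 to 58.9 CPM. A cluster of 154 cells led by histone genes, as cycling cells would be, held Bmp4 at 181 to 255 CPM and Id1 at 222 to 347 CPM, and no UMI of Bmp3, Grem1 or Chrdl1 in any library.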
